A study of Mus musculus with 20 samples.

Results

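The genes described here are 10 genes of MHC class I antigen presentation in mouse bone marrow-derived macrophages (BMDM). They were chosen by name, as the genes of the normalized gene count table whose symbol is H2-K1, H2-D1, H2-T23, B2m, Tap1, Tap2, Tapbp, Psmb8, Psmb9 or Nlrc5. All 10 are among the 14456 genes of the table. The cells were grown with M-CSF for 6 days from the marrow of male wild-type C57BL/6 mice, whose age is given as 8 weeks in one place and as a range of 8 to 12 weeks in another. In a first experiment, 4 libraries came from BMDM kept in normal glucose (5.5 mM glucose, with 19.5 mM mannitol to match the osmolarity) and 4 from BMDM kept in high glucose (25 mM) for 24 h. In a second experiment, naive BMDM received PBS, exosomes of BMDM held in normal glucose with mannitol (BMDM-NG-exo) or exosomes of BMDM held in high glucose (BMDM-HG-exo) for 24 h, with 4 libraries per group. No group carries a gene deletion. The exosome groups differ by the medium of the donor cells, and PBS carries no vesicles, so it does not control for vesicles as such. The glucose level of the medium of the cells that received PBS or exosomes is not given in the sources used here. The labels do not say whether libraries are separate cultures or animals. For the exosome experiment, the study states that the exosome preparations were separate for each sample. The libraries of each group there carry different dates. For the glucose experiment no such statement or date was found. The p-values set a difference against the spread between these libraries, with each gene's variance moderated toward a trend over all genes tested. How much of the spread is technical is not known.

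MHC class I molecules show fragments of the cell's own proteins to CD8+ T cells and natural killer cells. The proteasome cuts proteins into peptides, the TAP transporter moves the peptides into the endoplasmic reticulum, and tapasin helps to load them onto a heavy chain paired with beta2-microglobulin. In macrophages, as in most cells, the whole set is raised by interferons, through IRF factors and through NLRC5, a transcriptional activator of class I genes.

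The members have different parts in that route. H2-K1 and H2-D1 encode the classical heavy chains of C57BL/6 mice. H2-T23 encodes Qa-1, a non-classical heavy chain read by CD94-NKG2 receptors, and B2m the light chain that all of them share. Tap1 and Tap2 encode the subunits of the peptide transporter, and Tapbp encodes tapasin. Psmb8 and Psmb9 encode catalytic subunits of the immunoproteasome, the form of the proteasome that interferon induces, and Nlrc5 encodes the activator.

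In GENCODE M21 (GRCm38), 8 of the members lie on chromosome 17 between Tapbp, at chr17:33915899-33929292 on the plus strand, and H2-T23, at chr17:36029773-36032855 on the minus strand. H2-K1 lies at chr17:33996017-34000347 (minus) and H2-D1 at chr17:35262730-35267499 (plus). The processing genes form one block with Psmb9 at chr17:34181987-34187764 (minus), Tap1 at chr17:34187553-34197225 (plus), Psmb8 at chr17:34197721-34201454 (plus) and Tap2 at chr17:34203527-34216321 (plus). B2m lies at chr2:122147686-122153083 (plus) and Nlrc5 at chr8:94434356-94527272 (plus). Psmb9 and Tap1 overlap head to head on opposite strands, and Tapbp overlaps Zbtb22 on its own strand. The reads were counted by strand. Of the 100-base windows of their transcripts, H2-K1 shares 0.957% with another gene, H2-D1 3.59% and H2-T23 3.15%. The partners include H2-Q10, H2-Q5 and H2-Q7 for H2-K1. H2-D1 and H2-T23 share windows with each other, and both with H2-Q1, Gm7030 and Gm11127. A single 100-base read from those windows cannot be given to one gene on its own. The libraries were sequenced from both ends, and the other read of a pair was not considered here. How such reads were treated is not given in the sources used here.

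Stretches upstream of some of the genes are shown because the heavy chains and B2m are a textbook case of a shared promoter layout. Whether the layout bears on the changes described below was not tested. RefSeq promoter entries (GRCm38.p6) were found for 8 of the 10 members, all but Tap2 and Nlrc5. The 200 bases before the RefSeq start site (which for H2-D1, H2-T23, Tapbp, Psmb8 and Psmb9 lies well inside the longer GENCODE gene) were searched on both strands for TTTCNNTT (an interferon regulatory factor type motif), TGACG (the core of a cyclic AMP response element, as in the X2 box), CCAAT and the NF-kappaB consensus. Capitals mark every match. A match is a description of letters and not a shown binding site.
H2-K1 (chr17:34000348-34000547, minus strand): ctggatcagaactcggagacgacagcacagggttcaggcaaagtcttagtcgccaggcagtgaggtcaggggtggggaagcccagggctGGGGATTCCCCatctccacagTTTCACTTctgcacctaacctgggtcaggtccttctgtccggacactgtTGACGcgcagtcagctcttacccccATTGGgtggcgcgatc
H2-D1 (chr17:35262894-35263093, plus strand): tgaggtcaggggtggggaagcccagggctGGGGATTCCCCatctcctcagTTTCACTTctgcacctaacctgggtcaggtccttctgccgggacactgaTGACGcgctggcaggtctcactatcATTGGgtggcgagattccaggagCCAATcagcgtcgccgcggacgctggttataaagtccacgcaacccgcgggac
H2-T23 (chr17:36032702-36032901, minus strand): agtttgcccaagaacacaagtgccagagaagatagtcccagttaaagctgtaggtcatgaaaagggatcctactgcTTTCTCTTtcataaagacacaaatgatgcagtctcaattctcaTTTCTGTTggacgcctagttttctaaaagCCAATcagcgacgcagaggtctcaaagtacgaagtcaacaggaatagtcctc
B2m (chr2:122147487-122147686, plus strand): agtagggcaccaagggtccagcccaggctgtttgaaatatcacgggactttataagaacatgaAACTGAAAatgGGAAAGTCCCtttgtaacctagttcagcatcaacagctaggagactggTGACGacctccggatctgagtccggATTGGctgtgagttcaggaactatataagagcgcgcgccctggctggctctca
Tap1 (chr17:34187356-34187555, plus strand): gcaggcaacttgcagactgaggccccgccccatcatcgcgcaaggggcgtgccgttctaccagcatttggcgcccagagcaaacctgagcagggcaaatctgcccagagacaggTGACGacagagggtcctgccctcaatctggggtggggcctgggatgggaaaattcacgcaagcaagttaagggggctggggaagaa

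The window of H2-K1 and that of H2-D1 hold the same order of letters, an NF-kappaB match followed by TTTCACTT, TGACG and ATTGG. B2m holds matches to the same 4 motifs, but with the interferon regulatory factor type match before the NF-kappaB match and then TGACG and ATTGG. H2-T23 holds the interferon regulatory factor type motif at 2 places and CCAAT, without TGACG or the NF-kappaB consensus in this window. The Tap1 window lies between the start sites of Tap1 and Psmb9, which are 226 bases apart, and holds TGACG alone. Over the 8 windows, TTTCNNTT was found in 4 members, TGACG in 5, CCAAT in 6 and the NF-kappaB consensus in 3. The windows of Tap1 and Psmb9 overlap and their TGACG match is the same site, so the windows are not all separate. The Psmb8 window held no match. Of all 32851 RefSeq promoter entries, 17% hold TTTCNNTT in the same 200 bases, 15.7% TGACG, 29.3% CCAAT and 6.07% the NF-kappaB consensus.

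The 20 libraries held between 34016445 and 56310712 reads in the listed genes, and each member had at least 499 reads in every library. All 8 macrophage markers were listed. None of the 7 dendritic cell markers was listed. Of the other marker lists, 4 of 7 neutrophil genes were listed (summed level per library 111 to 253 normalized counts), 3 of 6 fibroblast genes (107 to 349), 1 of 8 T and NK cell genes, Cd4 (35.4 to 117), and 1 of 5 B cell genes, Cd79b (17.4 to 68.0). The summed level of the macrophage markers, most of it from Lyz2 and Csf1r, moved with the groups, but the single markers did not all go one way. In high glucose 4 of the 8 were called higher (Lyz2, Csf1r, Cd14 and Adgre1) and 2 lower (Mertk and Cd68), and with either exosome group 5 were called lower than with PBS and none higher. In high glucose the sum lay between 808014 and 878735 normalized counts, above the 628420 to 702912 of normal glucose. The range for PBS was 794502 to 841224, that for BMDM-NG-exo 717507 to 773976 and that for BMDM-HG-exo 735061 to 759636. The part of this shift in the results below was not tested. In bulk libraries, fewer cells of a type and less RNA per cell cannot be told apart.

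Per length, the members covered a wide range of levels. Normalized counts per kb of annotated exon, averaged over the 20 libraries, were highest for B2m at 38128 ± 2287 (SD, n = 20) and H2-D1 at 35048 ± 2021. H2-K1 followed at 9862 ± 576, Tapbp at 2820 ± 219, H2-T23 at 1575 ± 139 and Psmb8 at 1092 ± 82.1. The lowest were Tap2 at 491 ± 35.9, Nlrc5 at 403 ± 49.1, Tap1 at 381 ± 38.7 and Psmb9 at 172 ± 18.6. The light chain and the classical heavy chains thus stood far above the genes that make and move the peptides. B2m was above H2-D1 in 17 of 20 libraries and Nlrc5 above Tap1 in 13, so these neighbours overlap in level, as do Tap2 and Nlrc5, which kept their order in 19. The other neighbours kept their order in all 20 libraries. The length used is the union of all annotated exons of a gene, such as 3381 bases for Psmb8 and 3660 for Psmb9. It can be longer than the transcript made in these cells, so the order depends on this choice. No other length was tried.

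**Figure D1:**
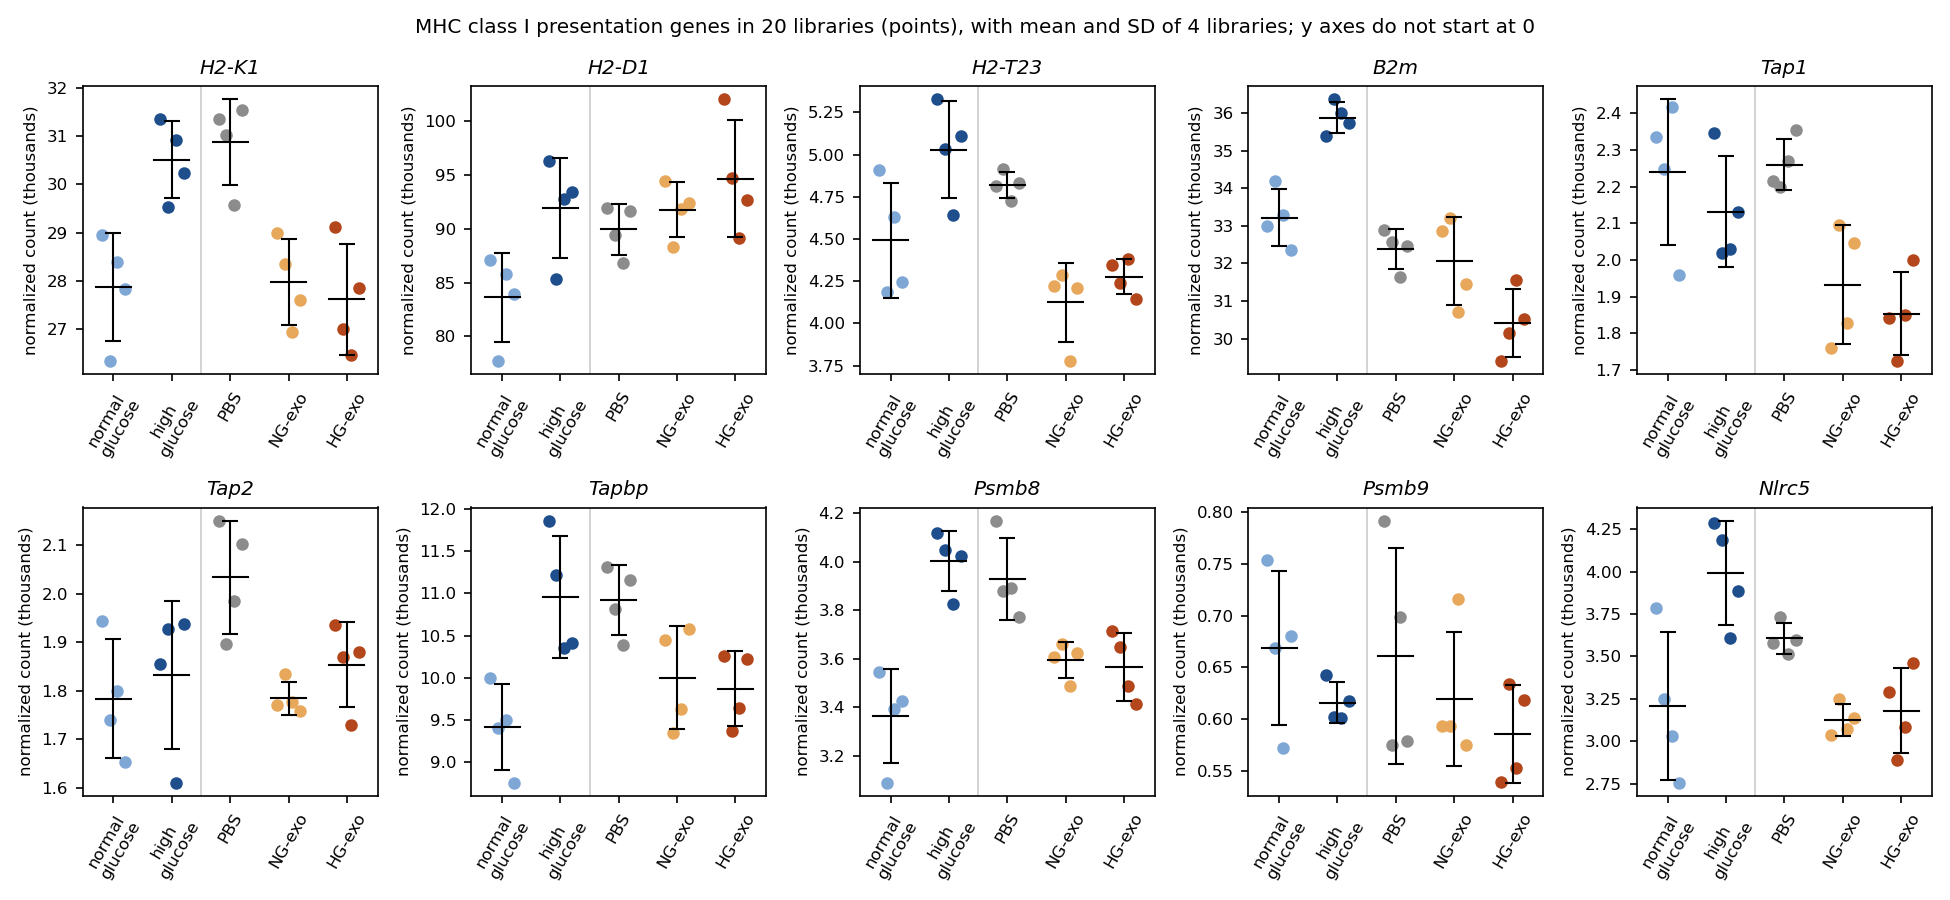
Normalized count, in units of 1000, of each member in the 20 libraries, 1 point per library, with the mean and SD of the 4 libraries of each group, for the 2 glucose groups and the 3 groups of the exosome experiment, on y axes that do not start at 0. The 4 high glucose points of B2m, H2-K1, Tapbp and Psmb8 lie above the 4 normal glucose points, and the 4 PBS points of Tap1, H2-T23, H2-K1 and Nlrc5 lie above those of both exosome groups.

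High glucose raised 7 of the 10 genes: Nlrc5, Psmb8, Tapbp, H2-T23, H2-D1, H2-K1 and B2m. The rises were small, between 8.03% for B2m and 25.0% for Nlrc5. Tap1, Tap2 and Psmb9 did not pass the test. Calls rest on an adjusted p under 0.05 in limma's moderated test on log2(normalized count + 1), two-sided, with Benjamini-Hochberg adjustment over 14425 genes. Of those genes, 7.74% were called higher, and no member was called lower. The median log2 fold change of the members was 0.13, beside -0.00 over all genes tested. By quantile normalization, which evens out the whole distribution, 5 members were called higher, without B2m (log2 fold change 0.036, adjusted p = 0.457) and H2-T23 (0.14, adjusted p = 0.0719), and over all genes 789 were called higher and 872 lower instead of 1116 and 798.

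The activator gene had the largest log2 fold change of the 10. Nlrc5 had 3787, 3248, 3034 and 2758 normalized counts in the normal glucose libraries 1, 3, 5 and 6, and 4288, 4188, 3609 and 3883 in the high glucose libraries 1, 2, 4 and 6. Its groups overlapped, since normal glucose 1 lay above high glucose 4. The log2 fold change was 0.32 (SE 0.063, limma adjusted p = 0.000339).

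Among the heavy and light chains, B2m and H2-K1 separated the groups fully. B2m had 32991, 34184, 33294 and 32368 normalized counts in the normal glucose libraries, against 35387, 36365, 36002 and 35731 in those of high glucose (log2 fold change 0.11, SE 0.031, limma adjusted p = 0.0127). H2-K1 had 28964, 26346, 28388 and 27830 in the normal glucose libraries, against 31363, 29541, 30926 and 30233 in those of high glucose (log2 fold change 0.13, SE 0.034, limma adjusted p = 0.00661). All 4 high glucose libraries lay above all 4 normal glucose libraries for both. H2-D1, the more abundant classical chain, had 87067, 77698, 85821 and 83951 in the normal glucose libraries, against 96265, 85347, 92787 and 93404 in those of high glucose (log2 fold change 0.14, SE 0.037, limma adjusted p = 0.0092). H2-T23 had 4910, 4187, 4631 and 4245 in the normal glucose libraries, against 5329, 5031, 4641 and 5111 in those of high glucose (log2 fold change 0.16, SE 0.049, limma adjusted p = 0.0205). Both of these overlapped between the groups, H2-D1 through high glucose 2 and H2-T23 through high glucose 4 and normal glucose 1.

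The genes of peptide supply divided. Psmb8 had 3543, 3088, 3394 and 3426 normalized counts in the normal glucose libraries, against 4117, 4048, 3827 and 4022 in those of high glucose (log2 fold change 0.25, SE 0.047, limma adjusted p = 0.000168). Tapbp had 9995, 9402, 9491 and 8751 in the normal glucose libraries, against 11867, 11216, 10347 and 10412 in those of high glucose (log2 fold change 0.22, SE 0.043, limma adjusted p = 0.000324). For both, the high glucose libraries lay above all normal glucose libraries. The genes of the head-to-head pair had log2 fold changes of the other sign, -0.11 for Psmb9 (SE 0.088, limma adjusted p = 0.46) and -0.07 for Tap1 (SE 0.060, limma adjusted p = 0.511). The range of Psmb9 was 573 to 754 normalized counts in normal glucose, which holds the high glucose range of 601 to 643, and that of Tap1 was 1959 to 2416 in normal glucose, which holds 2019 to 2346. Tap2 had a log2 fold change of 0.04 (SE 0.062, limma adjusted p = 0.758), with 1654 to 1943 in normal glucose and 1611 to 1938 in high glucose. The 95% confidence interval reached from -0.29 to 0.07 for Psmb9, from -0.19 to 0.05 for Tap1 and from -0.09 to 0.16 for Tap2.

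In all, the groups did not overlap for 4 members, each higher in high glucose, where 9.18% of all genes tested had all high glucose libraries above the normal glucose libraries. With a single prior variance for all genes in place of the trend, only Psmb8 was called (adjusted p = 0.0466), and the adjusted p of the other 6 lay between 0.104 and 0.229. Leaving out 1 library ended the call of B2m (without high glucose 2, adjusted p = 0.0528), of H2-D1 (without high glucose 1, adjusted p = 0.0531) and of H2-T23 (without normal glucose 3 or 6 or high glucose 1, 2 or 6, adjusted p between 0.0502 and 0.0943).

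**Figure D2:**
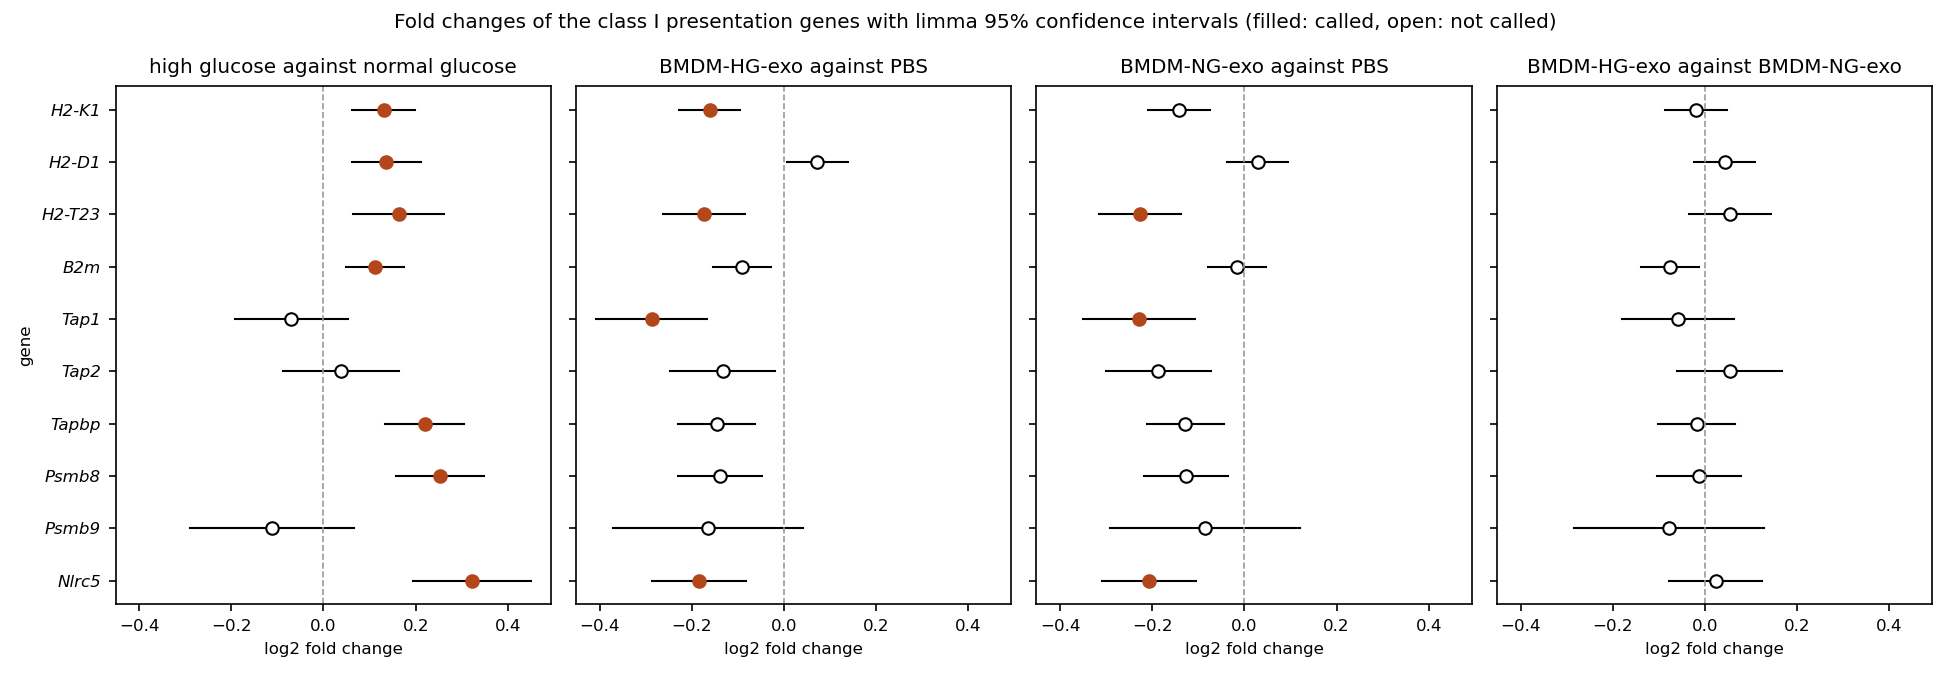
Log2 fold change of each member on the x axis with its 95% confidence interval from limma (lines), in 4 comparisons, with filled points for called genes and open points for genes that were not called. The 7 called genes of the glucose comparison lie to the right of 0, the 4 and 3 called genes of the comparisons with PBS lie to the left, and no gene was called between both exosome groups.

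Both kinds of exosome lowered members relative to PBS. With BMDM-HG-exo, 4 of the 10 genes were called lower, Tap1, Nlrc5, H2-T23 and H2-K1, and with BMDM-NG-exo 3 were, Tap1, H2-T23 and Nlrc5. The called levels changed by -18.1% (Tap1) to -10.6% (H2-K1) with BMDM-HG-exo, and by -14.7% (Tap1) to -13.4% (Nlrc5) with BMDM-NG-exo. Here a call also needed a log2 fold change of 0.15 or more in size. The glucose calls had no such limit, so the counts follow unlike rules. B2m (0.11), H2-K1 (0.13) and H2-D1 (0.14) were called in high glucose with log2 fold changes under 0.15. Without the limit, 5 members were called lower with BMDM-HG-exo and 4 with BMDM-NG-exo. Of the 14413 genes tested, 3.08% were called lower with BMDM-HG-exo and 2.11% with BMDM-NG-exo. No member was called higher. Over the members, the median log2 fold change against PBS was -0.15 for BMDM-HG-exo and -0.14 for BMDM-NG-exo, beside 0.00 over all genes in both. The comparisons share the PBS libraries, so they are given side by side and are not independent of each other.

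The transporter gene Tap1 fell the furthest with BMDM-HG-exo. It had 2216, 2200, 2271 and 2354 normalized counts in PBS libraries 1 to 4, 1762, 2095, 1829 and 2048 with BMDM-NG-exo and 1842, 1725, 1851 and 2000 with BMDM-HG-exo. Every library of either exosome group lay below every PBS library. The log2 fold change was -0.29 with BMDM-HG-exo (SE 0.060, limma adjusted p = 0.00142) and -0.23 with BMDM-NG-exo (SE 0.060, limma adjusted p = 0.0209).

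H2-T23 and H2-K1 were lower in all exosome libraries as well. H2-T23 had 4814, 4912, 4727 and 4832 normalized counts with PBS, 4222, 4288, 3777 and 4212 with BMDM-NG-exo and 4345, 4239, 4380 and 4147 with BMDM-HG-exo. Its log2 fold change against PBS was -0.17 with BMDM-HG-exo (SE 0.044, limma adjusted p = 0.0111) and -0.23 with BMDM-NG-exo (SE 0.044, limma adjusted p = 0.000977). BMDM-NG-exo 3 lay far below the other libraries of its group, and the log2 fold change without it was -0.18 (adjusted p = 0.0132). H2-K1 had 31359, 31030, 29581 and 31538 with PBS, 28988, 28360, 26944 and 27610 with BMDM-NG-exo and 29129, 27019, 26483 and 27853 with BMDM-HG-exo. For BMDM-HG-exo its log2 fold change was -0.16 (SE 0.033, limma adjusted p = 0.00115), and by quantile normalization it was -0.15, just inside the limit on the fold change. With BMDM-NG-exo it was -0.14 (SE 0.033, limma adjusted p = 0.00704), which lies inside the limit on the fold change, so H2-K1 was not called there. By quantile normalization it was called with BMDM-NG-exo (log2 fold change -0.17, limma adjusted p = 0.000294).

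Nlrc5 had 3580, 3735, 3516 and 3600 normalized counts with PBS, 3036, 3249, 3073 and 3139 with BMDM-NG-exo and 3289, 2888, 3087 and 3462 with BMDM-HG-exo. The exosome groups lay wholly below PBS. The log2 fold change was -0.18 with BMDM-HG-exo (SE 0.050, limma adjusted p = 0.0197) and -0.21 with BMDM-NG-exo (SE 0.050, limma adjusted p = 0.0108). With all 20 libraries in 1 fit Nlrc5 was called in neither (adjusted p = 0.0707 and 0.0502).

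The other members had lower values with exosomes, except H2-D1, but did not pass both limits. Tapbp had 11321, 10821, 10388 and 11155 normalized counts with PBS, 10447, 9340, 9630 and 10581 with BMDM-NG-exo and 10254, 9359, 9642 and 10225 with BMDM-HG-exo. Its log2 fold change was -0.15 with BMDM-HG-exo (SE 0.041, limma adjusted p = 0.025, just inside the limit on the fold change) and -0.13 with BMDM-NG-exo (SE 0.041, limma adjusted p = 0.0838). Psmb8, at 3770 to 4169 normalized counts in PBS libraries, 3485 to 3659 in BMDM-NG-exo libraries and 3414 to 3715 in BMDM-HG-exo libraries, separated from PBS in both groups without being called (log2 fold changes of -0.14 and -0.13 with BMDM-HG-exo and BMDM-NG-exo, limma adjusted p = 0.0658 and 0.143). Tap2 lay between 1896 and 2150 in PBS libraries. Its range was 1758 to 1834 for BMDM-NG-exo, wholly below PBS, and 1730 to 1936 for BMDM-HG-exo, which overlaps PBS. For BMDM-NG-exo its log2 fold change was -0.19 (SE 0.056, limma adjusted p = 0.0587), and with the date that the labels give to each library as a block it was called (adjusted p = 0.0416). With BMDM-HG-exo the log2 fold change of Tap2 was -0.13 (SE 0.056, limma adjusted p = 0.203).

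B2m had 32897, 32568, 31653 and 32452 normalized counts with PBS, 32858, 33197, 30725 and 31450 with BMDM-NG-exo and 29409, 30165, 31571 and 30531 with BMDM-HG-exo. The BMDM-HG-exo libraries lay just below all PBS libraries, with a log2 fold change of -0.09 (SE 0.031, limma adjusted p = 0.0865), and BMDM-NG-exo gave -0.02 (SE 0.031, limma adjusted p = 0.898). Psmb9, the least abundant member, overlapped in all groups, at 575 to 792 in PBS libraries, 575 to 716 in BMDM-NG-exo libraries and 539 to 634 in BMDM-HG-exo libraries. Its 95% confidence interval against PBS reached from -0.37 to 0.04 for BMDM-HG-exo and from -0.29 to 0.12 for BMDM-NG-exo.

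H2-D1 was the one member whose log2 fold change was above 0 with exosomes. It had 91912, 89389, 86792 and 91700 normalized counts with PBS, 94484, 88309, 91850 and 92418 with BMDM-NG-exo and 102065, 94706, 89171 and 92652 with BMDM-HG-exo. The groups overlapped, and neither log2 fold change was called, at 0.07 with BMDM-HG-exo (SE 0.033, limma adjusted p = 0.243) and 0.03 with BMDM-NG-exo (SE 0.033, limma adjusted p = 0.788). Within a library, the log2 ratio of H2-K1 to H2-D1 reads does not depend on the scaling of the library. The ratio was chosen after the values were seen and was not tested. It was -1.54 ± 0.012 (SD, n = 4) with PBS, -1.71 ± 0.057 with BMDM-NG-exo and -1.78 ± 0.039 with BMDM-HG-exo, and no exosome library reached the lowest PBS library. In the glucose experiment it was -1.58 ± 0.016 in normal glucose and -1.59 ± 0.044 in high glucose, with overlapping groups.

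Without overlap between the groups, 7 members were lower with BMDM-HG-exo than with PBS (5.59% of all genes tested were) and 6 were lower with BMDM-NG-exo (4.63% of all genes tested were). With a single prior variance in place of the trend no member was called in either comparison, with adjusted p between 0.0574 and 0.138 for BMDM-HG-exo and between 0.0610 and 0.179 for BMDM-NG-exo. With BMDM-HG-exo, the call of Nlrc5 was lost without PBS 2 or BMDM-HG-exo 2 or 3 (adjusted p between 0.0736 and 0.141), and H2-K1 came inside the limit on the fold change without BMDM-HG-exo 3 (log2 fold change -0.14), which left 2 members called. Tapbp was called without PBS 3, BMDM-HG-exo 1 or BMDM-HG-exo 4, and Psmb8 without BMDM-HG-exo 1. With BMDM-NG-exo, Nlrc5 was lost without PBS 2 (adjusted p = 0.0530) and Tap1 without PBS 4 or BMDM-NG-exo 1 or 3 (adjusted p between 0.0805 and 0.115). Without PBS 3, 5 members were called with BMDM-NG-exo, H2-K1 and Tapbp among them. H2-K1 was also called without BMDM-NG-exo 1, Tapbp without BMDM-NG-exo 4 and Tap2 without PBS 2.

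Between the exosome groups no member was called. The test gave 2 genes of all those tested (0.0139%), 942 genes had an unadjusted p under 0.05, edgeR gave 1 gene, DESeq2 25 and limma with the date as a block 22, and no member was among the genes of any of these. The groups overlapped for all 10 members. The log2 fold changes of the members, BMDM-HG-exo against BMDM-NG-exo, lay between -0.08 for Psmb9 and 0.05 for H2-T23. The 95% confidence intervals show what these libraries can tell. That of H2-K1 reached from -0.09 to 0.05, that of Nlrc5 from -0.08 to 0.12 and that of Tap1 from -0.18 to 0.06, while that of B2m reached from -0.14 to -0.012 (limma adjusted p = 0.665). When BMDM-HG-exo was set against the PBS and BMDM-NG-exo libraries as 1 control group, 0.201% of all genes tested and no member were called. The log2 fold change was then -0.17 for Tap1 (SE 0.065, limma adjusted p = 0.311), and the other members lay between -0.12 and 0.06.

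A test of the difference asked whether glucose acted on the members as the exosomes of glucose-treated cells did. The effect of high against normal glucose minus that of BMDM-HG-exo against BMDM-NG-exo was fitted over all 20 libraries, and it was called for 4 members, each with a higher value for glucose: Nlrc5 at 0.30 (SE 0.088, limma adjusted p = 0.0363), Psmb8 at 0.26 (SE 0.064, limma adjusted p = 0.00796), Tapbp at 0.24 (SE 0.063, limma adjusted p = 0.0171) and B2m at 0.19 (SE 0.042, limma adjusted p = 0.00424). Of all genes tested, 3.27% were called in that direction. Over all genes, 472 were called higher and 213 lower, and by quantile normalization 322 and 290, with Psmb8 as the 1 member called (B2m, Nlrc5 and Tapbp had adjusted p between 0.0839 and 0.145). With the dates and library numbers as a block, Nlrc5 (adjusted p = 0.0567) and Psmb8 (adjusted p = 0.0831) were not called. Only 2 members were called without BMDM-NG-exo 4, BMDM-HG-exo 2, normal glucose 6 or high glucose 1. Nlrc5 also lost its call without BMDM-NG-exo 2, BMDM-HG-exo 3, normal glucose 5 or high glucose 2, and Tapbp without BMDM-NG-exo 1 (adjusted p between 0.0531 and 0.121 over these). H2-K1, which was not called (0.15, SE 0.047, limma adjusted p = 0.0591), was called without BMDM-NG-exo 3, BMDM-HG-exo 1, normal glucose 1 or high glucose 2. DESeq2 called H2-K1 as well (adjusted p = 0.0385).

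Each subunit of the immunoproteasome takes the place of a constitutive subunit: Psmb8 that of Psmb5, Psmb9 that of Psmb6 and Psmb10 that of Psmb7. The log2 ratio of reads between partners within a library was not tested, and it does not correct for gene length. For Psmb8 to Psmb5 it was 2.02 ± 0.15 (SD, n = 4) in normal glucose and 2.0 ± 0.17 in high glucose, where both partners were called higher. It was 2.07 ± 0.10 with PBS, 1.90 ± 0.18 with BMDM-NG-exo and 1.84 ± 0.071 with BMDM-HG-exo, and each BMDM-HG-exo library lay below each PBS library. For Psmb9 to Psmb6 the ratio was -1.82 ± 0.16 in normal glucose and -2.01 ± 0.099 in high glucose, and it was -1.98 ± 0.29 for PBS, -2.09 ± 0.16 for BMDM-NG-exo and -2.24 ± 0.14 for BMDM-HG-exo. For Psmb10 to Psmb7 it was 0.15 ± 0.12 and 0.32 ± 0.16 in normal and high glucose, and it was 0.51 ± 0.12 for PBS, 0.22 ± 0.19 for BMDM-NG-exo and 0.30 ± 0.26 for BMDM-HG-exo. Except for Psmb8 to Psmb5 between PBS and BMDM-HG-exo, these ratios overlapped between the groups of each experiment.

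**Figure D3:**
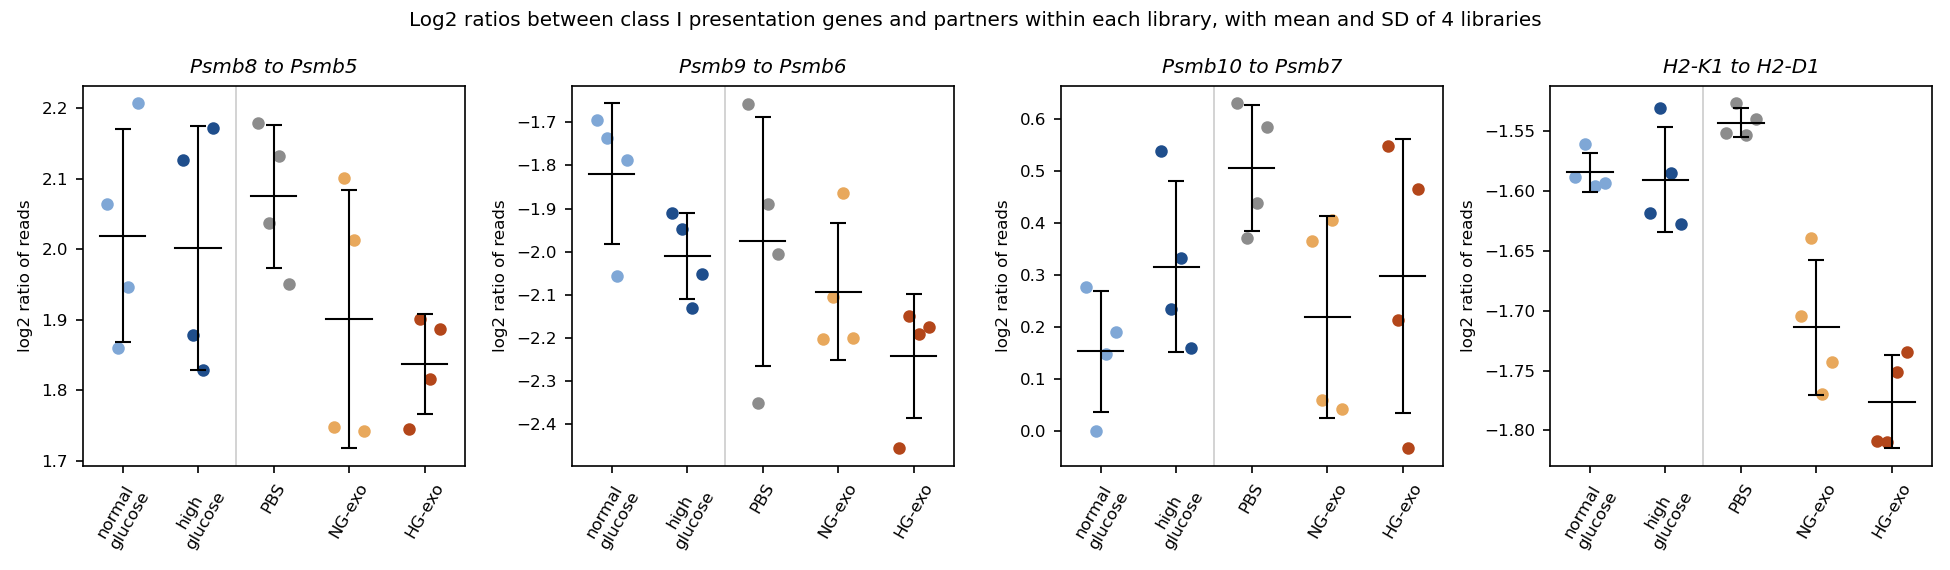
Log2 ratio of the reads of 2 genes within each library (y axis) for Psmb8 to Psmb5, Psmb9 to Psmb6, Psmb10 to Psmb7 and H2-K1 to H2-D1, 1 point per library in 5 groups, with the mean and SD of 4 libraries. The ratio of H2-K1 to H2-D1 sits near -1.54 with PBS and near -1.71 and -1.78 with BMDM-NG-exo and BMDM-HG-exo.

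Other genes of the route were taken from hand-written lists. The table holds 12 other heavy chain genes, 13 genes of peptide loading and trimming, 19 genes of the proteasome and its activator and 18 regulators. In high glucose, 7.74% of all 14425 genes tested were called higher, and 798 genes were called lower. Of the heavy chain genes, 1 was called higher and 2 lower. In the other lists 4 loading genes, 7 proteasome genes and 3 regulators were called higher, with none lower. The median log2 fold changes of the heavy chain, loading, proteasome and regulator lists were 0.08, 0.05, 0.10 and 0.07. With BMDM-HG-exo against PBS, 4 heavy chain genes, 1 loading gene, 2 proteasome genes and 3 regulators were called lower, beside 3.08% of all genes tested. With BMDM-NG-exo against PBS, 2 heavy chain genes and 1 regulator were called lower, beside 2.11% of all genes tested. None of the listed genes was called higher in either comparison. The medians were -0.25, -0.04, -0.05 and -0.10 with BMDM-HG-exo and -0.14, -0.05, -0.03 and -0.06 with BMDM-NG-exo. Between the exosome groups none was called.

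Ordered by the smallest adjusted p, the heavy chain gene H2-T24 stood first. The log2 fold change of H2-T24 was 0.44 in high glucose (limma adjusted p = 1.16e-05), -0.53 with BMDM-HG-exo (limma adjusted p = 2.88e-06) and -0.50 with BMDM-NG-exo (limma adjusted p = 1.66e-05), both against PBS. Irf1, an interferon-induced transcription factor, was called in high glucose at 0.19 and with BMDM-HG-exo at -0.30. Ifngr1, a chain of the interferon-gamma receptor, fell by 0.23 on the log2 scale with BMDM-HG-exo, and Nfkb1, a subunit of NF-kappaB, rose by 0.13 in high glucose.

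Among the other heavy chains, Fcgrt, the neonatal Fc receptor, was lower in high glucose (-0.20) as well as with BMDM-HG-exo against PBS (-0.25) and against the combined controls (-0.22). H2-Q4 was lower with BMDM-HG-exo (-0.27) and BMDM-NG-exo (-0.23), and Hfe, which binds the transferrin receptor, with BMDM-HG-exo (-0.25). A further heavy chain gene, Mr1, which presents vitamin metabolites and was not among the first 20, was lower in high glucose (-0.31, limma adjusted p = 0.0442). Of the loading genes, the chaperones Calr (0.16) and Hspa5 (0.12) and the peptidases Erap1 (0.19) and Npepps (0.15) were higher in high glucose, and Hspa5 was lower with BMDM-HG-exo (-0.17). Of the proteasome genes, Psmb10 (0.27), Psmb5 (0.27), Psmb3 (0.25), Psme2 (0.21), Psma1 (0.19), Psme1 (0.17) and Psma4 (0.16) were higher in high glucose. Psmb10 (-0.29) and Psme2 (-0.20), the third immunoproteasome subunit and a subunit of the PA28 activator, were lower with BMDM-HG-exo against PBS. In the test of the difference between the glucose and exosome effects, H2-T24 (0.47), Psmb10 (0.43), Psmb3 (0.36), Psma6 (0.34), Irf1 (0.32), Psme1 (0.24), Calr (0.21) and Hspa5 (0.18) were called, each higher for glucose.

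For comparison, 28 of 31 interferon-stimulated genes were called higher in high glucose and 1 lower, and their median was 0.55 (log2 fold change). BMDM-HG-exo gave 30 called lower against PBS (median -0.65) and BMDM-NG-exo 27 (median -0.56). Of 12 class II presentation genes, 5 were called higher and 1 lower in high glucose (median 0.10), and 5 and 4 were called lower with BMDM-HG-exo and BMDM-NG-exo (medians -0.40 and -0.16). The class I members had medians of 0.13, -0.15 and -0.14 in the same 3 comparisons. Of all genes tested, 7.74% were called higher in high glucose. Against PBS, 3.08% were called lower with BMDM-HG-exo and 2.11% with BMDM-NG-exo. No test was made between the lists.

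**Figure D4:**
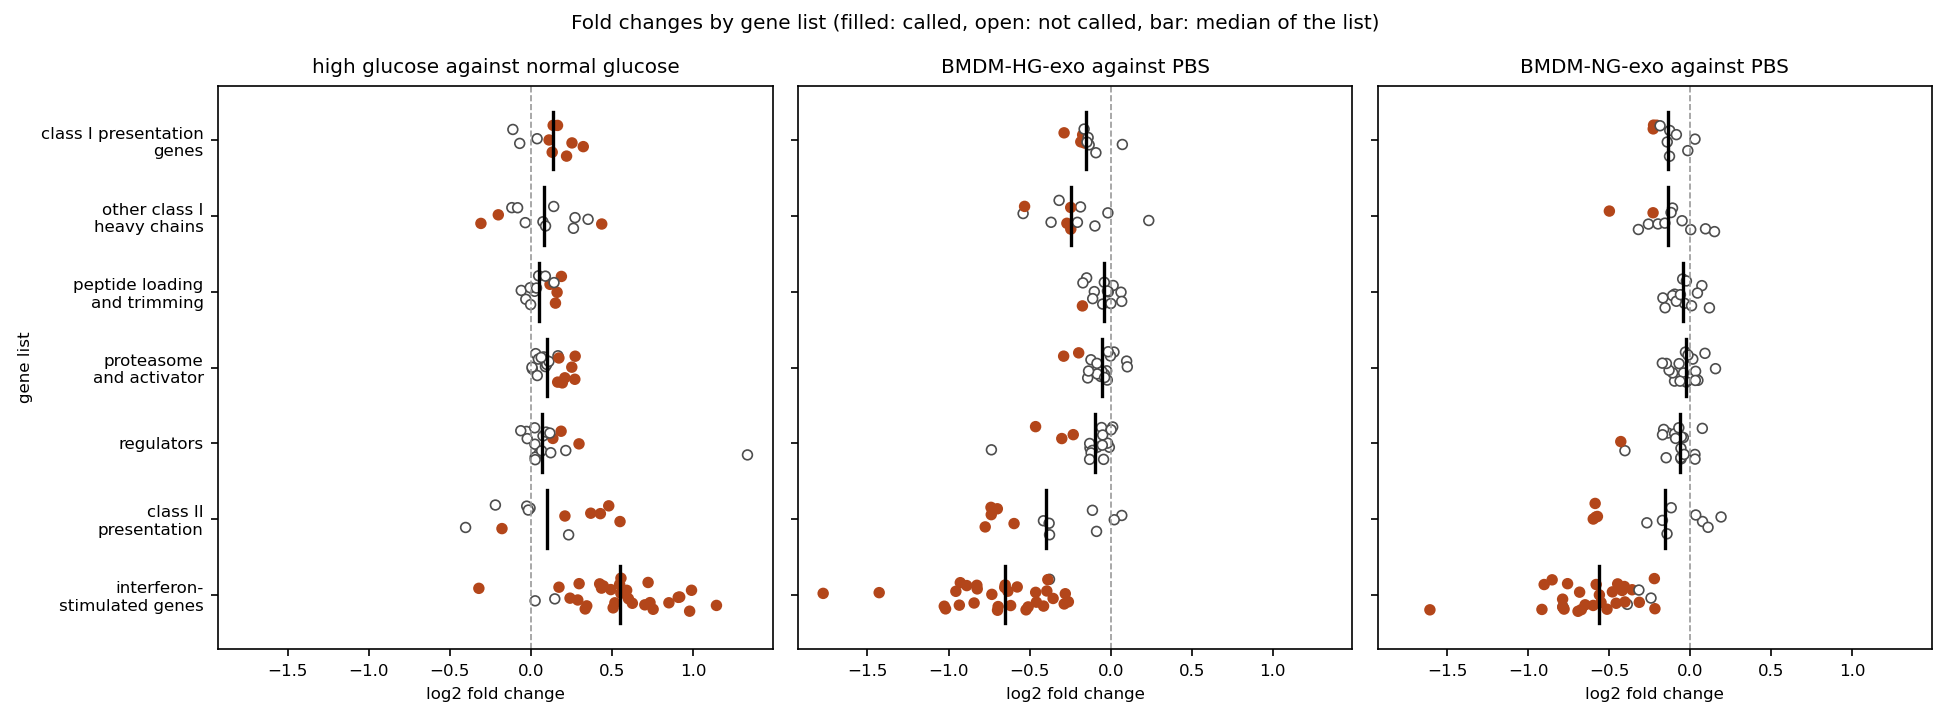
Log2 fold change (x axis) of every gene of 7 lists in 3 comparisons, with filled points for called genes, open points for genes that were not called and a bar at the median of each list. The class I members lie between -0.11 and 0.32 in high glucose, while the interferon-stimulated genes reach 1.14 in high glucose and -1.77 with BMDM-HG-exo.

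Over the 20 libraries, the members did not all follow one pattern. Pearson's r between a member and the mean of the other 9, each standardized, was 0.86 for H2-K1, 0.84 for Nlrc5, 0.84 for H2-T23, 0.80 for Tapbp and 0.79 for Psmb8. It was 0.55 for Tap2, 0.47 for Tap1 and 0.41 for B2m, and near 0 for H2-D1 (0.10) and Psmb9 (0.07). These values describe 20 libraries that share groups, scaling and depth, and they carry no test. Of the genes outside the set that average 50 or more normalized counts, those most like the mean of the 10 members were Ly6e (r = 0.92), Parp10 (r = 0.92), Oas1a (r = 0.92), Bst2 (r = 0.92) and Helz2 (r = 0.91), all over 20 libraries. Ly6e, for example, averaged 9043 normalized counts in normal glucose, 12942 in high glucose, 12252 with PBS, 9286 with BMDM-NG-exo and 8538 with BMDM-HG-exo.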

How the data were processed

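The libraries were total RNA libraries of 20 mouse BMDM samples. The authors used STAR for mapping and featureCounts for strand-specific counts per gene, and scaled each library by a DESeq2 size factor (median of ratios). The deposited signal is therefore a normalized read count per gene, and the build is GRCm38 per the labels. The annotation used for counting is not given in the sources used here. Names, coordinates and exon lengths come from GENCODE M21.

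Every value was a whole multiple of its library's smallest step (100% within 0.001), which gave whole reads (34016445 to 56310712 per library). The step lies within 1% of 1 for PBS 4 and for BMDM-HG-exo 1, so the values of these libraries alone do not tell scaled from unscaled counts. The table holds genes with a median of at least 11 reads. Replicate libraries differed by more than sampling noise in all 30 pairs. Intervals from reads would cover counting error only and are not given.

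Log2(normalized count + 1) of genes with a mean of at least 10 was tested with limma 3.58.1 in R 4.3.3 (eBayes with trend), two-sided, and p-values were adjusted after Benjamini-Hochberg over the genes tested. The 8 glucose libraries, the 12 exosome libraries as 3 groups, BMDM-HG-exo against 8 controls and all 20 libraries were separate fits. Exosome libraries of one replicate number carry the same date in the labels, which paired them. Their deviations from the group means correlated with a mean r of 0.012 (12 pairs) and the other pairs with -0.004 (36 pairs). Alternatives were edgeR 4.0.16 and DESeq2 1.42.0 on the recovered reads, other scalings, pseudocounts and filters, a fit without trend, a replicate block and leaving out each library. On the reads, edgeR called 1904 genes in high glucose (limma 1914), 691 and 445 against PBS with BMDM-HG-exo and BMDM-NG-exo (limma 698 and 432) and 673 in the difference (limma 685). The fitting code was tested on simulated data.

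The members, lists and tests were chosen with earlier results of these data known. The text names all members, the other pathway genes called in any comparison (the 20 with the smallest adjusted p, and the 1 further gene), and the 5 genes most like the members. The values of 1 of the named pathway genes and of 1 marker gene are not reported here. Motif letters were chosen with the sequences in view.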

Additional observations from a re-analysis of the deposited data

Results flagged for a closer look

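In 50 sets of 4 libraries (10 genes in 5 groups), 1 library stood apart from the other 3 by Dixon's criterion in 2 sets, where chance gives about 1 in 20. Both were in BMDM-NG-exo 3. H2-T23 had 3777 normalized counts there against 4212 to 4288 in the other libraries of the group, and Psmb9 had 716 against 575 to 594. Without that library the log2 fold change of H2-T23 against PBS was -0.18 (limma adjusted p = 0.0132) in place of -0.23, and that of Psmb9 was -0.16 in place of -0.09 (not called in either).

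For 4 genes the effect of high glucose differed from the effect of exosomes of glucose-treated cells in the test of the difference itself. The difference was 0.30 for Nlrc5, with effects of 0.32 and 0.023. It was 0.26 for Psmb8, with effects of 0.25 and -0.012. It was 0.24 for Tapbp, with effects of 0.22 and -0.018. It was 0.19 for B2m, with effects of 0.11 and -0.075. By quantile normalization Psmb8 was the 1 member called. Of the 20 fits that each left out 1 library, Nlrc5 was called in 12 and Tapbp in 15, and B2m and Psmb8 in all 20.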

How the results depend on the processing

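The signs of the called log2 fold changes stayed in all settings tried, and of the alternative values of called members 364 were called too and 57 were not. Depth limits Psmb9 the most, which had 499 reads in its lowest library. With a single prior variance for all genes in place of the trend, 1 of 10 members was called in high glucose. Against PBS, 0 and 0 were called with BMDM-HG-exo and BMDM-NG-exo, and 2 were in the test of the difference. The genes called were 654, 295, 95 and 324 (1 between the exosome groups and 1 against the combined controls). With the replicate block, 3 members and 788 genes were called in high glucose, where only 2 library numbers occur in both groups (mean r of same-numbered libraries 0.007 over 2 pairs, other pairs -0.001 over 14), so these numbers do not pair the libraries. The block gave 2 members and 296 genes for the difference and 22 genes between the exosome groups, where 2 were called without it. Besides Tap2, Nlrc5 and Psmb8, named with their results, it changed no member's call in the exosome comparisons or the difference. Uncalled values that changed sign under the block were Tap1 in high glucose (0.064), and Tap1 (0.12) and Tap2 (0.027) in the difference. Under quantile normalization 1 member was called in the difference, H2-K1 had 0.021 between the exosome groups and H2-D1 -0.069 in the difference, and 19 genes were called against the combined controls. Genes called between the exosome groups were 5 with a pseudocount of 5, 5 at a mean of at least 50, 1 with TMM factors, 1 with edgeR, 25 with DESeq2 and 0 with all 20 libraries in 1 fit. Against the combined controls they were 47 with a pseudocount of 5 and 136 with DESeq2, beside 29. The cause of these differences was not tested.

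Leaving out 1 library at a time gave 2 to 6 members called for BMDM-HG-exo against PBS, 2 to 5 for BMDM-NG-exo against PBS, 2 to 5 for the difference and 5 to 7 in high glucose. Genes called were 1 to 7 between the exosome groups and 1 to 204 against the combined controls, the most without BMDM-NG-exo 3. Values near 0 that crossed it, none of them called, were B2m (-0.033 to 0.0046) and Psmb9 (-0.16 to 0.0047) for BMDM-NG-exo against PBS. Between the exosome groups they were H2-K1 (-0.045 to 0.0011), Nlrc5 (-0.018 to 0.069), Psmb8 (-0.032 to 0.0085) and Tapbp (-0.050 to 0.010). In the difference they were Psmb9 (-0.11 to 0.025), Tap1 (-0.074 to 0.032) and Tap2 (-0.052 to 0.045).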

Other observations

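B2m served the study as a reference gene for quantitative PCR in mouse cells, beside Gapdh. In these libraries B2m ran from 29409 to 36365 normalized counts over all 20 libraries, a span of 1.24 times between the lowest and the highest, and it was called higher in high glucose, though not by quantile normalization (log2 fold change 0.036, limma adjusted p = 0.457). Its means were 33210 in normal glucose, 35871 in high glucose, 32393 with PBS, 32058 with BMDM-NG-exo and 30419 with BMDM-HG-exo. The study's quantitative PCR of Abca1 was on cells given PBS or exosomes. In the comparisons of those groups B2m was not called. Its limma adjusted p was 0.0865 for BMDM-HG-exo against PBS, 0.898 for BMDM-NG-exo against PBS and 0.665 between the exosome groups.

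Psmb9 had the widest spread within a group of the 10 genes, with a standard deviation of 15.7% of the mean with PBS. That of Tap1, its head-to-head neighbour, was 3.07% there. The order was reversed in high glucose, at 3.16% for Psmb9 and 7.11% for Tap1. In normal glucose the values were 11.1% and 8.89%, with BMDM-NG-exo 10.5% and 8.43%, and with BMDM-HG-exo 8.03% and 6.08%.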
